A study of Mus musculus with 24 samples.

Results

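The 50 genes described here drive, mark or restrain the cell division cycle, and they were followed in cultured mouse dendritic cells of 3 strains before and after lipopolysaccharide (LPS), a component of the outer membrane of Gram-negative bacteria. They were chosen by gene symbol and fall into 26 genes of the G1/S transition and DNA replication, 21 genes of the G2 phase and mitosis (G2/M), and 3 genes that encode inhibitors of cyclin-dependent kinases. All 50 were among the 55291 gene symbols of the deposited table, and all 50 were among the 13246 symbols that reached at least 1 TPM (a level scaled for transcript length and library total) in at least 4 libraries and were tested. The cells were bone marrow-derived dendritic cells, grown from marrow in granulocyte-macrophage colony-stimulating factor (GM-CSF). The 6 groups were untreated and LPS-treated cells of strain B6, of strain C57 and of strain PWD, with 4 libraries in each group and 24 in all. LPS came from E. coli and was given at 10 ng/ml for 6 h, and the cultures came from 4 individual mice per strain. PWD is a wild-derived inbred strain, the labels do not say how the C57 mice differ from the B6 mice, and no engineered allele is named for any group. No source used here gives the age or sex of the mice.

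The cultures were sequenced in bulk and unsorted. Of 12 dendritic cell markers, 1 to 3 lay under 1 TPM in each group, with Flt3 under 1 TPM in all 6 groups and Cd209a under 1 TPM in the 3 LPS groups. The summed level of these markers ranged from 6849 to 9117 TPM in untreated and 7406 to 8893 TPM in treated B6 libraries, from 2708 to 3435 TPM and then 2548 to 2989 TPM in C57, and from 3174 to 5477 TPM and then 3429 to 5055 TPM in PWD. Macrophage and monocyte markers summed to 1822 to 2331 TPM in untreated and 1418 to 1499 TPM in treated B6 libraries, 1642 to 1817 and 1264 to 1575 TPM in C57, and 860 to 1033 and 792 to 886 TPM in PWD. Neutrophil and granulocyte precursor markers summed to 2097 to 2424 and 1875 to 2283 TPM in B6, 2982 to 4973 and 2083 to 3986 TPM in C57, and 1759 to 2969 and 1314 to 1994 TPM in PWD. Markers of mast cells, basophils and eosinophils went with LPS from 6.86 to 9.998 TPM up to 86.7 to 99.7 TPM in B6, stood at 9.27 to 35.5 and 32.2 to 61.7 TPM in C57, and at 105 to 202.2 and 90.9 to 202.0 TPM in PWD, with Ms4a2 and Fcer1a under 1 TPM in every group. In treated B6 cells 7 of these 9 markers lay under 1 TPM, so the sum there rests on Prg2 and Hdc. Markers of B cells and plasmacytoid dendritic cells stood at 98.0 to 131 and 329.6 to 394 TPM in B6, 94.9 to 108 and 222 to 248 TPM in C57, and 32.2 to 41.9 and 96.3 to 123 TPM in PWD, with Pax5 and Siglech under 1 TPM in every group. In both B6 groups 5 of these 8 markers lay under 1 TPM, which left Cd79b, Bst2 and Tcf4. Stromal and endothelial markers summed to 9.58 to 27.6 TPM over all libraries, erythroid ones to at most 4.94 TPM and T and NK cell ones to at most 2.62 TPM. The part of these markers in the results was not tested. The summed level of 8 stem and progenitor markers lay between 8.31 and 22.4 TPM in every library, with Hoxa9 and Flt3 under 1 TPM in every group. Structural RNA made up 28.8% to 44.2% of the TPM of a library, and between 10731 and 12663 genes reached 1 TPM. Libraries numbered 1 and 2 differed from those numbered 3 and 4 in the level of Xist, the RNA of the inactive X chromosome, so that number and sex of the mouse cannot be told apart. In bulk RNA, fewer dividing cells and less RNA per dividing cell cannot be told apart.

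As background, cells enter the cycle when D-type cyclins, bound to CDK4 or CDK6, phosphorylate the retinoblastoma protein and free E2F transcription factors. E2F then turns on cyclin E, the MCM helicase and the enzymes that make nucleotides and copy DNA. Genes of G2 and mitosis are switched on later through the MuvB complex with B-MYB and FOXM1, which acts at promoter elements called CHR, often beside CCAAT boxes bound by NF-Y. The inhibitors p21, p27 and p18 bind the kinases and hold cells in G1. In marrow cultures GM-CSF drives precursors to divide while they differentiate, and LPS is known to slow the division of cultured myeloid cells.

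The promoter windows of the 2 main classes held different motif letters, which are shown because the classes also differed between strains in the response to LPS. RefSeq windows (GRCm38.p6, 250 bases before to 50 after the start) were found for 41 of the 50 members, in 45 windows. Each was searched on both strands for TTTCCCGC or TTTGGCGC or TTTCGCGC (E2F-type), for TTTGAA or TTCGAA (CHR) and for CCAAT. A CHR match lay in 76.5% of the 17 G2/M windows, in 17.4% of the 23 G1/S and replication windows and in 19.2% of all 32851 windows of this length. A CHR match together with CCAAT was found in 76.5% of G2/M windows against 7.53% of all windows. An E2F-type match was found in 34.8% of the G1/S and replication windows, in 5.88% of G2/M windows and in 1.85% of all windows, and overlapping matches were counted. Of the 5 windows of the 3 inhibitors, none held a CHR or an E2F-type match. A match describes letters in a window and is not evidence of binding.

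The 250 bases before the start are given below for 5 genes, 5′ to 3′ on the strand of the gene, from RefSeq on GRCm38.p6, with the matches in capitals. Cdc20 (chr4:118437344-118437593, minus strand), which activates the anaphase-promoting complex, and Cdk1 (chr10:69352913-69353162, minus strand), the kinase of mitotic entry, are G2/M genes that fell less after LPS in PWD and C57 than in B6. Mcm6 (chr1:128359706-128359955, minus strand) and Mcm5 (chr8:75109259-75109508, plus strand) encode subunits of the replicative helicase. Their responses were not called different between B6 and the other strains in the main setting. Mybl2 (chr2:163054385-163054634, plus strand) encodes B-MYB and was placed in the G2/M class here. When in the cycle its own RNA is made was not tested. It is the member of that class whose response was not called different in either contrast with B6.
Cdc20: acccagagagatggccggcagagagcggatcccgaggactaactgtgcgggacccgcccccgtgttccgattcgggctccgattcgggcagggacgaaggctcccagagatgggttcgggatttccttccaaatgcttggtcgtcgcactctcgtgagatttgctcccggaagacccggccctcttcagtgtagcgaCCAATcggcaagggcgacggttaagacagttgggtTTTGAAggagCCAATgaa
Cdk1: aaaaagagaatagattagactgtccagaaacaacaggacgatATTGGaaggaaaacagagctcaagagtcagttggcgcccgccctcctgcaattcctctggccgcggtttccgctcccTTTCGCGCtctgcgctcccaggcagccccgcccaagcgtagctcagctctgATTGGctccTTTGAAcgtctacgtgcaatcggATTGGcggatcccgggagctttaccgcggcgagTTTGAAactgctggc
Mcm6: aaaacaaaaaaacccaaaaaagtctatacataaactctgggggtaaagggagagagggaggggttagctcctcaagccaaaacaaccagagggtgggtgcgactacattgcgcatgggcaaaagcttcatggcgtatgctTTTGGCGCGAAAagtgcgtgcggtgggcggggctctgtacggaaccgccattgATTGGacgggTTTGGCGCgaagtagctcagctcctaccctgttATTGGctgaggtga
Mcm5: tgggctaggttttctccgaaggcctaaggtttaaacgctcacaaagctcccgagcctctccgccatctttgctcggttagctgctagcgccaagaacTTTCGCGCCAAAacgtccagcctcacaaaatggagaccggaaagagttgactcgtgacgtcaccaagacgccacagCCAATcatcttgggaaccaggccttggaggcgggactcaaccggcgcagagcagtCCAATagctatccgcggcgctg
Mybl2: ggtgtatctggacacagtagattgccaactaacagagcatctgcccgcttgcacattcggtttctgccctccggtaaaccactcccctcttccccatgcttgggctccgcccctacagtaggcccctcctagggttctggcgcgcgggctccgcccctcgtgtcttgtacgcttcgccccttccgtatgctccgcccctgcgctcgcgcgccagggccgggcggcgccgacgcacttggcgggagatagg
The Cdc20 and Cdk1 stretches hold TTTGAA close to the start, with CCAAT or its complement ATTGG nearby. Cdk1 also holds an E2F-type match. The Mcm6 and Mcm5 stretches hold E2F-type matches, which overlap in both, and CCAAT or ATTGG without CHR. None of the searched letters occurs in the Mybl2 stretch. The same holds for the Birc5 window, although its response was called higher in both contrasts with B6. The Ccnb1 and Cenpe windows hold CCAAT without CHR, and their responses were called higher too. The Mcm2 and Cdc45 windows and a Mcm7 window hold CHR and CCAAT, and the responses of these genes were not called different from B6 in the main setting. The E2f8 window holds both too, and the E2f8 response was called higher in PWD than in B6. Other forms of these motifs were not searched, and whether motif letters go with the response was not tested.

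LPS lowered nearly all cell cycle genes in all 3 strains. Of the 50 members, 43 fell and 4 rose in B6, 45 fell and 2 rose in C57, and 43 fell and 4 rose in PWD (limma on log2(TPM + 1) over all genes, Benjamini-Hochberg adjusted p under 0.05). Falls were common among all genes tested, at 59.7% in B6, 52.2% in C57 and 52.4% in PWD, while 11.9%, 10.4% and 11.1% of all genes rose. The median log2 change of all genes was -0.43 in B6, -0.32 in C57 and -0.32 in PWD, and the members are read against that shift. With median-of-ratios scaling, which sets that shift near 0, the members that fell numbered 42, 36 and 29 and those that rose numbered 6, 3 and 6, in the same order of strains. Of all 13246 genes tested, 4024, 3495 and 3460 fell and 4129, 3291 and 3591 rose with that scaling.

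The G2/M class fell most in B6. All 21 genes fell in B6 and in C57, and 20 fell in PWD, with median log2 changes of -1.75, -0.75 and -0.52. The 26 G1/S and replication genes had medians of -0.96 in B6, -0.82 in C57 and -0.97 in PWD, with 21, 23 and 22 of them called lower and 2, 1 and 2 called higher. In PWD the fall of the G2/M class depended on the scaling: with median-of-ratios scaling 8 of the 21 were called lower and 1 higher, and with quantile normalization 10 were called lower. In C57 the same settings gave 15 and 18 lower, and in B6 20 and 20. Of all 13246 genes tested, these settings called 3460 and 4273 lower in PWD. They called 3495 and 4152 lower in C57 and 4024 and 4659 lower in B6.

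**Figure D1:**
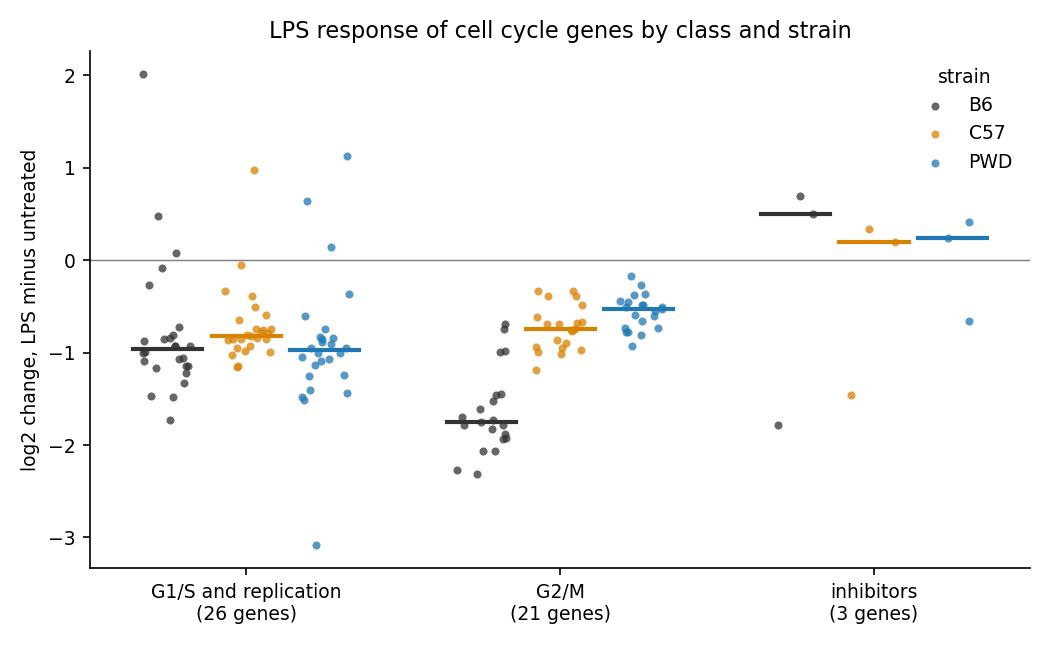
Log2 change in TPM + 1 after LPS (y axis) for each of the 50 genes (points), by class (x axis) and strain (colour), with the class median as a bar. The G2/M bar lies at -1.75 in B6 and at -0.75 and -0.52 in C57 and PWD, while the 3 bars of the G1/S and replication class lie between -0.82 and -0.97.

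Cdc20 showed the pattern of the G2/M class. Gene positions are given on mm10 from GENCODE, as whole transcription units. The gene spans chr4:118432901-118437352. Its level in the 4 untreated B6 libraries was 21.01, 18.8, 14.8 and 17.4 TPM and after LPS 2.72, 3.01, 2.96 and 2.55 TPM. In C57 it was 28.2, 25.2, 25.6 and 29.2 TPM before and 12.3, 10.5, 16.00 and 15.7 TPM after LPS, and in PWD 22.5, 22.3, 27.6 and 24.5 TPM before and 14.9, 15.0, 12.7 and 13.9 TPM after. Treated and untreated libraries did not overlap in any strain, and every B6 library after LPS lay below every other library. The log2 change was -2.31 ± 0.12 (SE; adjusted p = 4.24e-15) in B6, -0.95 ± 0.12 in C57 and -0.73 ± 0.12 in PWD.

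Cyclin B1, the partner of CDK1, followed the same course. Ccnb1 (chr13:100778650-100786570) was at 30.1, 31.1, 22.7 and 31.4 TPM in untreated B6 cells and at 7.17, 5.61, 6.12 and 5.56 TPM after LPS. In C57 it was at 52.6, 49.0, 55.3 and 55.4 TPM and then at 32.3, 25.3, 37.9 and 36.5 TPM, and in PWD at 25.6, 26.7, 34.4 and 31.9 TPM and then at 20.0, 21.9, 19.4 and 19.3 TPM. The groups did not overlap within a strain, and the log2 change was -2.06 ± 0.12 in B6, -0.69 ± 0.12 in C57 and -0.52 ± 0.12 in PWD. Cdk1 itself went from 42.0 ± 6.03 to 14.6 ± 0.573 TPM (SD, n = 4) in B6, from 66.6 ± 3.16 to 50.9 ± 4.22 TPM in C57 and from 58.9 ± 7.22 to 41.0 ± 3.77 TPM in PWD. Its log2 changes were -1.46, -0.38 and -0.51, and with median-of-ratios scaling those in C57 and PWD were -0.02 and -0.13 and did not pass the test.

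Plk1, the polo-like kinase of spindle assembly, and Kif23, the kinesin of the midbody, fell in B6, with log2 changes of -1.93 and -2.27. In B6, Plk1 read 15.7, 13.9, 10.96 and 13.0 TPM before and 3.22, 3.02, 2.43 and 2.38 TPM after LPS. The values in C57 were 22.7, 19.9, 23.1 and 22.8 TPM before and 12.7, 10.4, 16.1 and 18.5 TPM after, and those in PWD were 16.4, 17.5, 19.5 and 17.7 TPM before and 12.7, 14.9, 12.0 and 11.5 TPM after. The B6 libraries lost most of the transcript, and the C57 and PWD libraries kept a larger share of it. Kif23 fell by 1.19 in C57 and by 0.77 in PWD, the latter not past the test with median-of-ratios scaling (-0.41) or quantile normalization (-0.48). Cyclin A2 (Ccna2), which acts in S phase and G2, fell, with log2 changes of -2.06, -0.97 and -0.78 in B6, C57 and PWD. Its transcription unit overlaps Exosc9 on the other strand by 863 bases, and Cdc20 overlaps Elovl1 by 53 bases. No source used here gives the strand setting of the counting, so reads of such pairs may be shared.

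Mki67 (chr7:135689784-135716361), which encodes the proliferation marker Ki-67, changed less than the median G2/M gene in each strain. Untreated B6 libraries held 37.1, 35.2, 28.3 and 33.7 TPM, and LPS-treated ones 20.4, 19.5, 18.4 and 20.1 TPM. In C57 the values were 64.5, 60.05, 61.5 and 65.3 TPM before and 43.5, 38.2, 58.8 and 53.1 TPM after LPS, and in PWD 50.7, 56.6, 65.3 and 63.6 TPM before and 50.2, 57.5, 49.2 and 52.4 TPM after. The PWD groups overlapped. The log2 change was -0.74 ± 0.11 in B6 and -0.39 ± 0.11 in C57, and in PWD it was -0.17 ± 0.11 (adjusted p = 0.187), turning to 0.21 with median-of-ratios scaling. C57 libraries 1 and 2 after LPS had the lower Mki67 and Plk1 values, and 39.9% and 41.2% of their TPM were structural RNA against 31.6% and 33.4% in libraries 3 and 4. The part of that in the result was not tested. Mybl2 was low throughout, at 3.18 ± 0.696 and 1.65 ± 0.814 TPM (SD, n = 4) in untreated and treated B6 cells, and its log2 changes of -0.69, -0.68 and -0.93 did not follow the order of the class.

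Among genes of replication, the MCM helicase subunits fell in every strain. Mcm2 was at 7.85, 6.74, 5.69 and 8.14 TPM in untreated and at 2.00, 2.54, 1.80 and 2.54 TPM in LPS-treated B6 cells. In C57 it was at 19.4, 16.1, 18.5 and 19.0 TPM and then 8.39, 7.29, 10.3 and 9.09 TPM, and in PWD at 17.2, 18.04, 17.7 and 19.9 TPM and then 5.596, 6.62, 5.02 and 5.69 TPM. No treated library reached an untreated library of its strain, and the log2 changes were -1.33 ± 0.11, -0.99 ± 0.11 and -1.52 ± 0.11 in B6, C57 and PWD. Mcm7 fell, with log2 changes of -1.47, -1.15 and -1.44 in the same order. Pcna, the sliding clamp of DNA polymerase, was at 153 ± 9.88, 209.6 ± 4.92 and 124 ± 23.0 TPM (SD, n = 4) in untreated B6, C57 and PWD cells and 84.8 ± 5.74, 139 ± 8.12 and 63.0 ± 5.50 TPM after LPS. Cyclin E1 (Ccne1), which starts S phase with CDK2, fell, with log2 changes of -0.93, -0.74 and -1.25.

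Rrm2 (chr12:24708241-24714146), the regulated subunit of ribonucleotide reductase, departed from the other replication genes. B6 libraries held 19.7, 20.3, 14.7 and 17.9 TPM before and 4.50, 4.301, 4.43 and 5.76 TPM after LPS. C57 libraries held 47.4, 41.6, 47.5 and 46.3 TPM before and 19.8, 16.3, 22.5 and 22.6 TPM after, and PWD libraries 45.3, 47.5, 53.2 and 52.4 TPM before and 35.4, 35.3, 29.1 and 29.6 TPM after. Treated PWD cells thus kept more Rrm2 than untreated B6 cells had, without overlap. The log2 change was -1.73 ± 0.11 in B6, -1.14 ± 0.11 in C57 and -0.60 ± 0.11 in PWD. Tyms, thymidylate synthase, rose in B6 by 0.48 ± 0.13, from 12.8, 14.4, 15.2 and 13.3 TPM to 19.6, 17.5, 20.7 and 21.6 TPM. The members of the class that did not pass the test lay between -0.27 and 0.07 in B6 (E2f8, Gins2 and Chek1), between -0.33 and -0.06 in C57 (Tyms and Gins2), and between -0.37 and 0.14 in PWD (Tyms and Chek1).

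The 3 D-type cyclins, which couple growth signals to CDK4, did not move together. Ccnd2 went up after LPS while Ccnd1 and Ccnd3 went down, and the falls of Ccnd1 and Ccnd3 differed most in PWD. Ccnd2 (chr6:127125162-127152193) rose in every strain, from 202, 152, 135 and 177 TPM to 734, 608, 691 and 641 TPM in B6. It went from 92.4, 94.6, 82.2 and 82.6 TPM to 153, 179, 193 and 172 TPM in C57 and from 268, 259, 362 and 338 TPM to 427, 471, 520.1 and 482 TPM in PWD. The rise was 2.01 ± 0.12, 0.98 ± 0.12 and 0.64 ± 0.12 on the log2 scale, and the groups did not overlap within a strain. Ccnd2 was the most abundant member after LPS in B6 and PWD cells.

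Ccnd1 (chr7:144929931-144939925) fell in every strain, most in PWD. It read 32.1, 29.6, 29.9 and 44.3 TPM in untreated B6 cells and 15.9, 19.4, 15.6 and 14.5 TPM after LPS. In C57 it read 39.4, 42.0, 37.5 and 38.3 TPM before and 26.00, 27.5, 30.0 and 25.9 TPM after, and in PWD 34.4, 39.1, 49.9 and 46.7 TPM before and 4.02, 4.10, 4.73 and 3.63 TPM after. The untreated levels of the 3 strains overlapped, and the treated levels did not. The log2 change was -1.0 ± 0.12 in B6, -0.51 ± 0.12 in C57 (-0.15 and not past the test with median-of-ratios scaling) and -3.08 ± 0.12 in PWD. Ccnd3 fell, with log2 changes of -1.06, -0.74 and -0.88. Ccnd1 overlaps LTO1 and Ccnd3 overlaps Bysl on the other strand, by 1771 and 361 bases, and LTO1 was at 8.45 to 14.5 TPM over the groups.

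E2f8 (chr7:48866429-48881596), an E2F family member that represses E2F targets, rose in PWD. Its values there were 7.21, 6.83, 10.5 and 8.96 TPM before and 15.5, 18.3, 22.7 and 20.9 TPM after LPS, without overlap. In B6 the values were 8.32, 8.89, 6.25 and 7.86 TPM before and 7.13, 5.80, 6.02 and 6.29 TPM after, and in C57 9.72, 8.82, 9.86 and 10.1 TPM before and 6.38, 6.76, 8.08 and 7.35 TPM after. The log2 change was 1.12 ± 0.12 in PWD and -0.39 ± 0.12 in C57. In B6 it was -0.27 ± 0.12 (adjusted p = 0.058) and turned to 0.23 with median-of-ratios scaling and 0.31 with quantile normalization, both past the test.

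**Figure D2:**
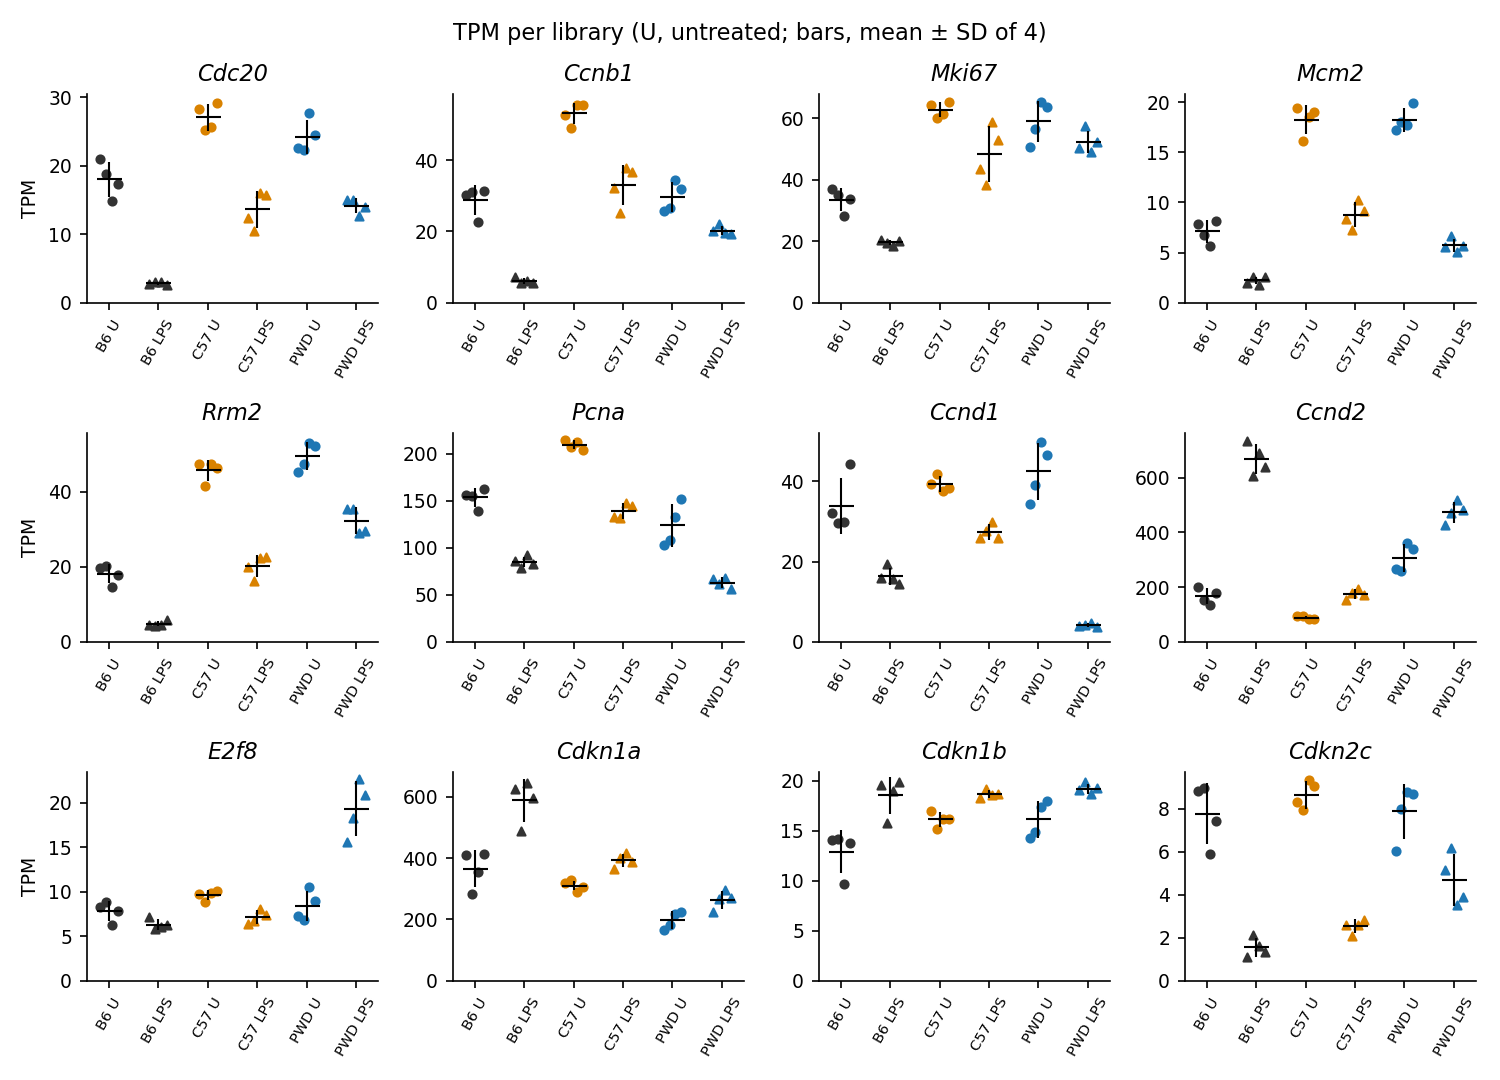
TPM of 12 cell cycle genes (y axes, each from 0) in each of the 24 libraries (points; circles untreated, triangles LPS) by strain and treatment (x axes), with the mean and SD of 4 as lines. B6 cells after LPS had the lowest Cdc20, Ccnb1, Mki67, Mcm2 and Rrm2, PWD cells after LPS had the lowest Ccnd1 and the highest E2f8, and Ccnd2 rose in all 3 strains.

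Of the inhibitors, Cdkn1a (p21, a target of p53; chr17:29090976-29100727) and Cdkn1b (p27) were higher after LPS, and Cdkn2c (p18, which binds CDK4 and CDK6) was lower. Cdkn1a was the most abundant, at 409, 283, 355 and 412 TPM in untreated and 626, 488, 644 and 594 TPM in treated B6 cells. C57 cells had 319, 327, 291 and 305 TPM before and 364, 402, 416 and 388 TPM after LPS, and PWD cells 165, 181, 219 and 224 TPM before and 222, 265, 295 and 269 TPM after. It rose by 0.70 ± 0.12, 0.34 ± 0.12 and 0.42 ± 0.12 in B6, C57 and PWD, and the PWD groups overlapped. Cdkn1b rose by 0.50 ± 0.10 in B6 and by 0.24 ± 0.10 in PWD. In C57 its change was 0.20 ± 0.10 (adjusted p = 0.0919) and passed the test with median-of-ratios scaling, at 0.55.

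Cdkn2c moved with the cycling genes. In B6 it read 8.83, 8.97, 5.90 and 7.42 TPM before and 1.11, 2.15, 1.60 and 1.34 TPM after LPS. In C57 the values were 8.29, 7.93, 9.32 and 9.07 TPM and then 2.61, 2.09, 2.59 and 2.84 TPM, and in PWD 6.05, 7.97, 8.79 and 8.70 TPM and then 5.13, 6.17, 3.54 and 3.90 TPM. It fell, with log2 changes of -1.78, -1.45 and -0.65, the PWD groups overlapped, and in PWD the fall did not pass the test with median-of-ratios scaling (-0.32).

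Whether the strains differed in their response to LPS was tested as the difference of log2 changes. G2/M genes fell less in PWD and in C57 than in B6. Of 21 genes, 20 had a higher (less negative) response in PWD than in B6 and none a lower one, with a median difference of 1.20. In C57 against B6 19 were higher and none lower, with a median of 0.93. Among all genes tested 16.0% were higher and 7.50% lower for PWD minus B6, and 10.9% higher and 3.39% lower for C57 minus B6, with medians of 0.14 and 0.12. The contrasts of PWD and of C57 share the B6 libraries.

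In the G1/S and replication class 3 of 26 genes had a higher and 2 a lower response in PWD than in B6 (median -0.10), and 2 a higher and 2 a lower one in C57 than in B6 (median 0.18). The G2/M counts for PWD stayed at 20 with median-of-ratios scaling, with quantile normalization and with a replicate block. The G1/S and replication genes with a lower response in PWD than in B6 numbered 8 with median-of-ratios scaling and 14 with quantile normalization, against 2 here, and 3 had a higher response under each. Over all genes tested the lower responses numbered 994 here, 2228 with median-of-ratios scaling and 1886 with quantile normalization. For C57 minus B6 the 4 calls of this class became 12, 10 of them higher, with TPM without structural RNA (3677 of all genes higher, against 1447 here), and 7 with a pseudocount of 0.1 TPM or without B6 untreated library 3. For PWD minus C57 the 4 calls of the class became 2 without C57 untreated library 3 or PWD LPS library 1, and 8 without PWD untreated library 1. Over all 50 members the split for PWD minus B6 was 24 higher and 2 lower, 24 and 10 with median-of-ratios scaling, and 24 and 15 with quantile normalization. Within libraries numbered 1 and 2 the G2/M counts were 20 for PWD and 12 for C57, and within libraries 3 and 4 they were 15 and 19, none lower in either. All genes tested gave 3671 higher and 520 lower for PWD and 473 and 252 for C57 within libraries 1 and 2, and 808 and 1366 for PWD and 1434 and 285 for C57 within libraries 3 and 4.

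In the G2/M class the Cdc20 difference was 1.58 ± 0.16 (SE; adjusted p = 7.07e-08) for PWD minus B6 and 1.36 ± 0.16 (adjusted p = 4.26e-06) for C57 minus B6. Ccnb1 gave 1.54 and 1.38, Plk1 gave 1.48 and 1.32, and Cdk1 gave 0.95 and 1.07 for the same 2 contrasts. Kif23 differed by 1.49 for PWD, and Bub1b, a kinase of the spindle checkpoint, by 1.17 for C57. Mki67 differed by 0.57 ± 0.15 for PWD, and for C57 by 0.35 ± 0.15 (adjusted p = 0.13). Mybl2 gave -0.23 ± 0.31 for PWD and 0.02 ± 0.31 for C57, with a spread that leaves differences of either sign possible.

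**Figure D3:**
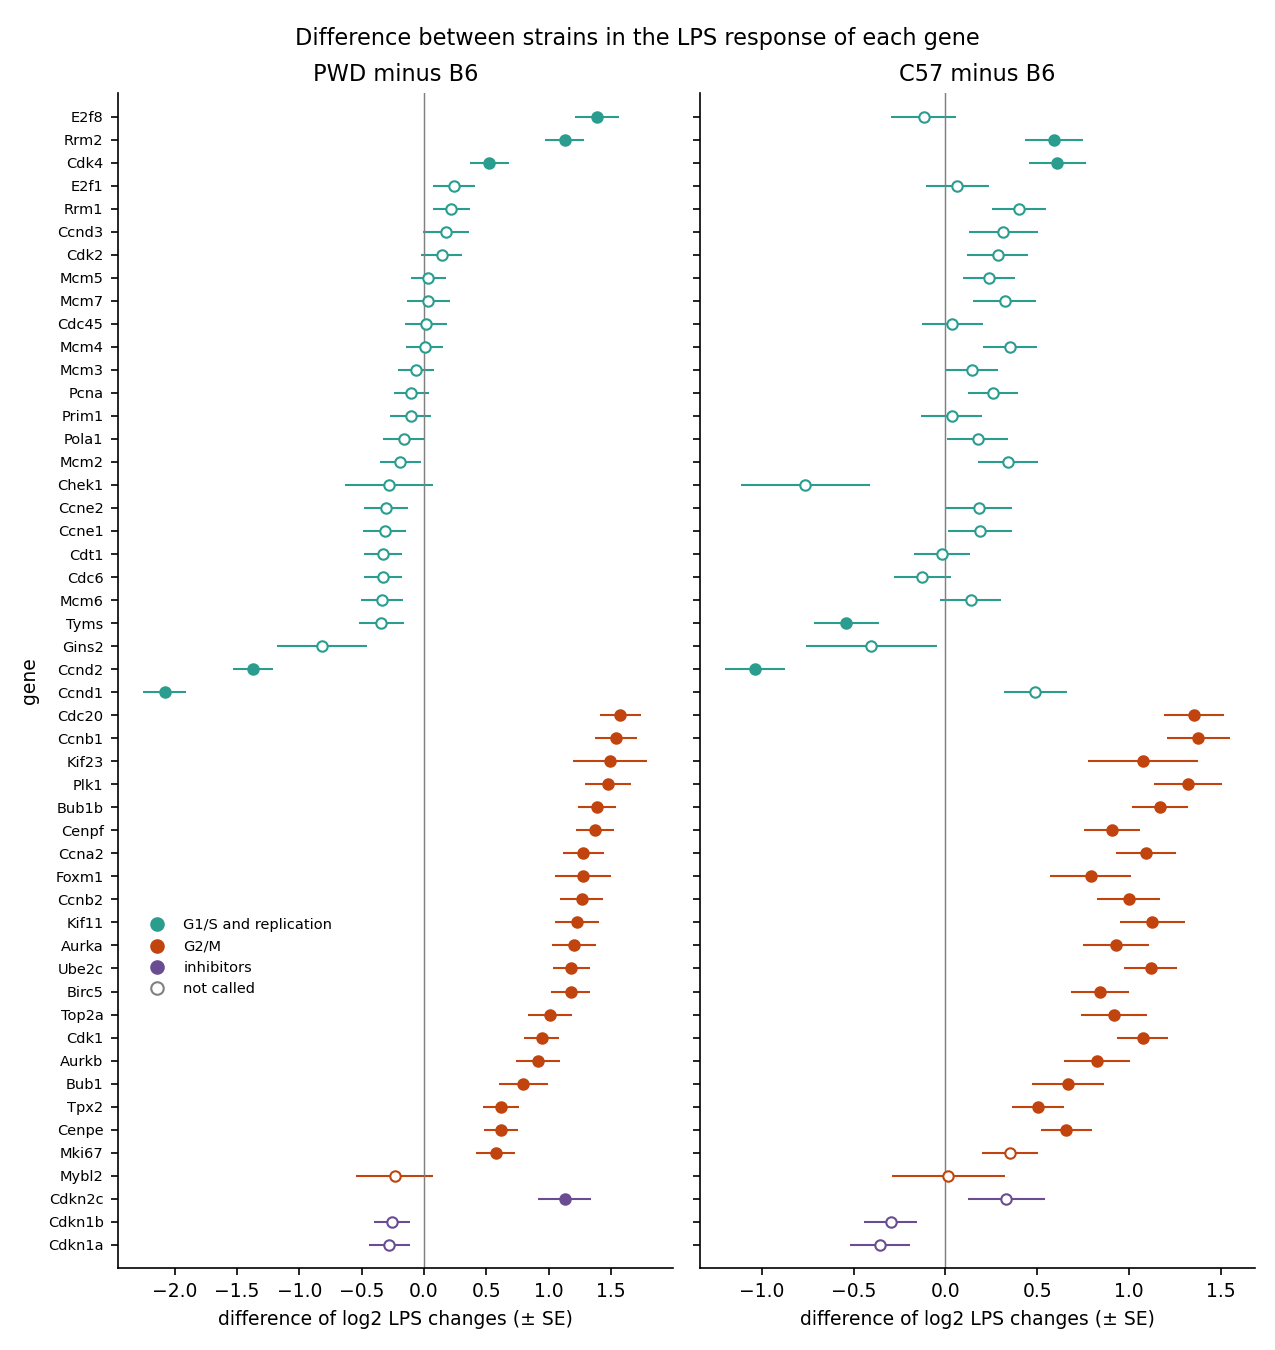
Difference of log2 LPS changes (x axis, with SE) for each of the 50 genes (y axis), for PWD minus B6 on the left and C57 minus B6 on the right, with filled points for adjusted p under 0.05 and colour for the class. In the G2/M class 20 and 19 of 21 points are filled and lie right of 0, and most G1/S and replication points are open and lie near 0.

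Of the helicase genes, Mcm2 had -0.19 ± 0.16 for PWD minus B6 and 0.34 ± 0.16 for C57 minus B6, and Mcm6 had -0.34 ± 0.17 for PWD minus B6. With quantile normalization the PWD minus B6 values were -0.49 for Mcm2 and -0.59 for Mcm6, both past the test, and Mcm6 passed with median-of-ratios scaling too (-0.49). The exceptions of the class were Rrm2 (1.13 for PWD, 0.59 for C57), Cdk4, the kinase partner of cyclin D (0.53 and 0.61), and E2f8 (1.39 for PWD). For C57 minus B6 the E2f8 difference was -0.12 ± 0.18. The Rrm2 difference for C57 was 0.23 and did not pass the test with quantile normalization. In the other direction, Ccnd2 rose less in PWD (-1.37 ± 0.16) and in C57 (-1.04 ± 0.16) than in B6. Ccnd1 fell further in PWD than in B6 (-2.08 ± 0.17, adjusted p = 1.02e-09), and Tyms differed by -0.54 for C57. For Ccnd1 in C57 minus B6 the value was 0.49 ± 0.17 (adjusted p = 0.0543).

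Of the inhibitors, Cdkn2c fell less in PWD than in B6, by 1.13 ± 0.21, and its difference for C57 was 0.33 ± 0.21. Cdkn1a gave -0.28 ± 0.16 for PWD and -0.36 ± 0.16 for C57. Cdkn1b gave -0.25 ± 0.14 and -0.30 ± 0.14. These 4 values did not pass the test and did so with median-of-ratios scaling, at -0.46, -0.55, -0.43 and -0.49. Between PWD and C57, 4 members had a higher and 2 a lower response in PWD, against 5.41% and 5.99% of all genes. They were Rrm2 (0.54), E2f8 (1.51), Cenpf (0.47), which encodes a kinetochore protein, and Cdkn2c (0.80) above, and Ccnd1 (-2.57) and Mcm2 (-0.53) below. The Cenpf value passed narrowly (adjusted p = 0.0495), and with a replicate block no G2/M gene passed. The count of 6 members became 14 with median-of-ratios scaling and 16 with quantile normalization. Over all genes tested 717 were higher and 793 lower here, 1486 and 1375 with median-of-ratios scaling, and 1535 and 1431 with quantile normalization.

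The 11 G2/M genes not described above, which encode spindle kinases (Aurka, Aurkb, Bub1), spindle motors and microtubule factors (Kif11, Cenpe, Tpx2), survivin (Birc5), cyclin B2 (Ccnb2), topoisomerase II (Top2a), a ubiquitin-conjugating enzyme of mitosis (Ube2c) and the transcription factor Foxm1, all fell in each strain. Their log2 changes ran from -1.88 (Kif11) to -0.99 (Tpx2) in B6, from -1.0 (Foxm1) to -0.33 (Cenpe) in C57 and from -0.81 (Aurkb) to -0.27 (Ube2c) in PWD, where 5 of the 11 passed the test with median-of-ratios scaling and 5 with quantile normalization. All 11 had a higher response in PWD than in B6, by 0.62 (Cenpe) to 1.28 (Foxm1), and in C57 than in B6, by 0.50 (Tpx2) to 1.13 (Kif11). The 10 remaining G1/S and replication genes, which encode cyclin E2 (Ccne2), CDK2, E2F1, origin and helicase factors (Cdc6, Cdc45, Mcm3, Mcm4), primase and polymerase alpha (Prim1, Pola1) and the large subunit of ribonucleotide reductase (Rrm1), also fell in each strain. Their log2 changes ran from -1.22 (Rrm1) to -0.72 (Cdc6) in B6, from -1.03 (E2f1) to -0.75 (Pola1) in C57 and from -1.48 (Ccne2) to -0.83 (Cdc45) in PWD. In the main setting none of the 10 passed the test of a different response in any pair of strains. With quantile normalization 5 of them (Ccne2, Cdc6, Mcm3, Mcm4 and Pola1) had a lower response in PWD than in B6, and with TPM without structural RNA 3 (Cdk2, Mcm4 and Rrm1) had a higher one in C57 than in B6 and 2 (Rrm1 and E2f1) in PWD than in B6. A pseudocount of 0.1 TPM gave higher responses of Mcm4 and Rrm1 in C57 than in B6, and a lower one of Ccne2 in PWD than in C57. Median-of-ratios scaling gave a higher response of Rrm1 in C57 than in B6, and lower ones of Mcm4 and Pola1 in PWD than in C57. In the main setting the differences ran from -0.33 (Cdc6) to 0.24 (E2f1) for PWD minus B6 and from -0.13 (Cdc6) to 0.40 (Rrm1) for C57 minus B6.

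Before treatment, B6 cells had the lowest levels of most members. Untreated PWD cells were higher than B6 cells in 40 members and lower in 2, with 37.2% of all genes higher and 19.7% lower. Untreated C57 cells were higher than B6 in 44 and lower in 1, with 31.9% of all genes higher and 6.92% lower. The G1/S and replication genes stood at median differences of 0.81 (PWD) and 0.92 (C57), with 23 and 22 of 26 higher. The G2/M genes stood at 0.43 and 0.69, with 16 and 21 of 21 higher, beside medians of all genes of 0.14 and 0.17. Rrm2 was higher by 1.41 in PWD and 1.29 in C57, Mcm2 by 1.25 and 1.25, and Cdt1, which licenses origins, by 1.19 and 1.54. Mki67 was higher by 0.80 and 0.89. Within libraries 1 and 2 the PWD count fell to 22 higher and 2 lower, 5 of the higher ones G2/M genes. Within libraries 3 and 4 it was 45 higher and 1 lower, 18 of the higher ones G2/M genes. All genes tested moved with that split, from 2799 higher and 3627 lower within libraries 1 and 2 to 6611 and 1682 within libraries 3 and 4. Structural RNA made up 41.9% and 40.3% of untreated PWD libraries 1 and 2 and 29.3% and 28.8% of libraries 3 and 4, and its part in that split was not tested. Over all libraries, TPM without structural RNA gave 5094 of all genes higher and 3309 lower in untreated PWD than B6 cells. The main setting gave 4930 and 2614.

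Ccnd2 and Cdkn1a did not share that order, while the B6 mean was the lowest for Ccnd1 (33.95 ± 7.01, 39.3 ± 1.93 and 42.5 ± 7.05 TPM in B6, C57 and PWD; SD, n = 4), Ccnd3 (43.1 ± 5.41, 49.7 ± 4.93 and 61.8 ± 8.27 TPM) and Cdkn2c (7.78 ± 1.44, 8.65 ± 0.650 and 7.88 ± 1.27 TPM), although B6 and C57 libraries overlapped in all 3 of these genes. Ccnd2 in untreated cells was highest in PWD and lowest in C57, with log2 differences from B6 of 0.88 and -0.90. Cdkn1a was lower in untreated PWD cells than in B6 (-0.88 ± 0.12) and than in C57 (-0.66 ± 0.12), and Cdkn1b was higher than in B6 by 0.31 in PWD and 0.31 in C57. Neither Cdkn1b difference passed the test with median-of-ratios scaling, at 0.16 and 0.11. Between PWD and C57, 2 members were higher and 13 lower in PWD, against 20.1% and 26.2% of all genes. Leaving out C57 untreated library 4 brought that total of 15 to 10.

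After LPS the G2/M genes separated B6 from the other strains more than before. PWD cells were higher than B6 in 41 members and lower in 4 (49.7% and 19.0% of all genes), and C57 cells were higher in 43 and lower in 2 (49.1% and 9.69%). The G2/M medians were 1.58 and 1.61, against 0.28 and 0.29 for all genes, and the G1/S and replication medians were 0.70 and 1.05. Cdc20 was higher by 1.99 in PWD and 1.92 in C57, Bub1b by 2.04 and 1.75, and Rrm2 by 2.54 and 1.89. E2f8 was higher by 1.47 in PWD. The members lower in PWD were Ccnd1 (-1.76), Ccnd2 (-0.49), Pcna (-0.42, and 0.13 and not past the test with its pseudogene copy added) and Cdkn1a (-1.16), and those lower in C57 were Ccnd2 (-1.94) and Cdkn1a (-0.58). PWD against C57 gave 8 members higher and 21 lower, with 24.4% and 29.8% of all genes. That split was 13 higher and 10 lower within libraries 1 and 2, and 3 higher and 29 lower within libraries 3 and 4. Over all genes tested the same split gave 3467 higher and 2814 lower, and then 2327 and 4282.

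The class medians of each library show the same order. In B6 the median log2(TPM + 1) of the G2/M genes lay between 3.99 and 4.27 untreated and between 2.17 and 2.32 after LPS, and that of the G1/S and replication genes between 3.54 and 3.81 and between 2.62 and 2.85. In C57 the G2/M medians lay between 4.68 and 4.84 and then between 3.63 and 4.20, and the G1/S and replication medians between 4.52 and 4.66 and then between 3.47 and 4.02. In PWD the G2/M medians lay between 4.54 and 4.67 and then between 3.81 and 4.01, and the G1/S and replication medians between 4.55 and 4.83 and then between 3.42 and 3.53. The G2/M median lay below the G1/S and replication median in all 4 treated B6 libraries and in none of the treated C57 and PWD libraries. Among untreated libraries it lay below in PWD library 2 (4.54 against 4.59) and PWD library 4 (4.67 against 4.83). The summed stem and progenitor markers in treated cells were 13.7 to 15.0 TPM in B6, 8.31 to 10.2 TPM in C57 and 19.9 to 22.4 TPM in PWD, and their part in the result was not tested.

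**Figure D4:**
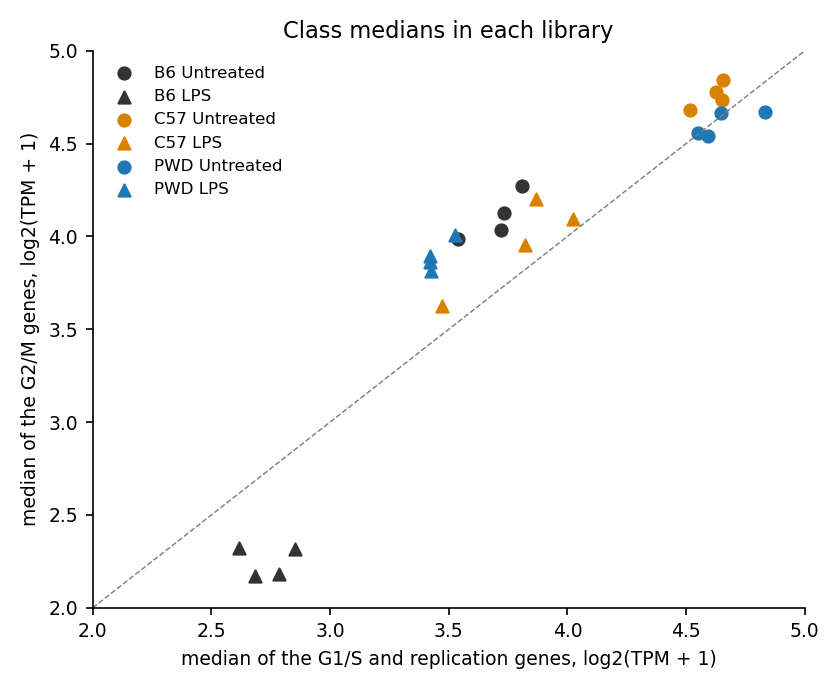
Median log2(TPM + 1) of the 26 G1/S and replication genes (x axis) and of the 21 G2/M genes (y axis) in each of the 24 libraries (points; colour for strain, circles untreated, triangles LPS), with a dashed line where both are equal. The 4 treated B6 libraries lie at 2.17 to 2.32 on the y axis, under the line, and the 4 treated PWD libraries at 3.81 to 4.01, above it. Untreated PWD libraries 2 and 4 also lie under the line.

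Near-identical copies bear on 2 members in PWD. Transcripts of 14 members matched 25 annotated pseudogenes (blastn, at least 90% identity over at least 300 bases), some of which are not named as copies of the member, and 3 of the 25 reached 1 TPM in a group. Pcna-ps2 (99.2% identity with Pcna over 781 bases) was at 54.7 TPM in untreated and 30.8 TPM in treated PWD cells, and between 0.653 and 2.21 TPM in the other groups. Ccnb1-ps was at 6.17 and 4.81 TPM and Gm12856 at 8.33 and 6.11 TPM in PWD, both copies of Ccnb1, and both were at 0.274 TPM or less in B6 and C57. With the copies added, an alternative chosen after seeing the data, Pcna in PWD against B6 moved from -0.32 to 0.19 untreated (adjusted p = 0.0701) and from -0.42 to 0.13 after LPS (adjusted p = 0.185). Ccnb1 in untreated PWD against B6 cells moved from 0.04 (adjusted p = 0.806) to 0.59 (adjusted p = 0.000119). The Ccnb1 difference of responses was 1.54 without and 1.58 with the copies.

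Other genes of the same pathways, from lists drawn up by function, were read beside the members. Of 52 other mitosis genes, 50 fell in B6, 50 in C57 and 47 in PWD, and 1 rose in each, with medians of -1.49, -0.75 and -0.65. Among all genes tested 59.7%, 52.2% and 52.4% fell and 11.9%, 10.4% and 11.1% rose. Kif20a and Anln, which act in cytokinesis, fell furthest in B6, with log2 changes of -2.16 and -2.15. The gene that rose was Pttg1, which encodes securin, the inhibitor of separase, by 1.94, 1.34 and 0.22 in B6, C57 and PWD. Of these 52, 36 had a higher and 1 a lower response in PWD than in B6 (Prc1, a bundler of the central spindle, at 2.15; Pttg1 at -1.72), and 34 a higher and 1 a lower one in C57 than in B6 (Cdca3 at 1.22; Pttg1 at -0.60). The shares of all genes were 16.0% higher and 7.50% lower for PWD minus B6, and 10.9% and 3.39% for C57 minus B6.

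Of 36 other replication and repair genes, 31, 33 and 35 fell in B6, C57 and PWD and none rose, with medians of -0.88, -0.80 and -0.87. Among all genes tested 59.7%, 52.2% and 52.4% fell. Tk1, thymidine kinase, fell by 1.61, 1.41 and 1.56. Their response was higher in PWD than in B6 for 2 (Dbf4 at 0.71 and Dnmt1 at 0.41) and lower for 3, the largest with at least 5 TPM being Rfc3 at -0.82. For C57 minus B6 it was higher for 2 and lower for 1. The shares of all genes were 16.0% higher and 7.50% lower for PWD minus B6, and 10.9% and 3.39% for C57 minus B6. Among 19 tested regulators of G1, 15 fell and 3 rose in B6, where 59.7% of all genes fell and 11.9% rose. Myc, a driver of cell growth, fell by 2.43 in B6, while Mxd1, which opposes MYC, rose by 1.24. The Myc response was higher by 1.68 in C57 and by 1.01 in PWD than in B6.

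Among 19 other tested inhibitors and brakes, 6 rose and 10 fell in B6, 4 and 7 in C57, and 5 and 10 in PWD, beside the 59.7%, 52.2% and 52.4% of all genes that fell and the 11.9%, 10.4% and 11.1% that rose. Gadd45b, a stress-induced growth arrest gene, rose by 1.86, 1.10 and 2.28, and Klf4 fell by 1.79, 1.68 and 2.30. Of 16 p53 targets, 4 rose and 12 fell in B6, with 3 and 11 in C57 and 3 and 11 in PWD, to be read beside the same shares of all genes. Plk2 rose by 1.03 in B6, and Fas, the death receptor, rose by 1.90 in PWD. Genes whose 6 group means tracked those of Mki67 most closely were Gsk3b, Mccc1, Pld1, Pde8a and Smurf2 (Pearson r of log2(TPM + 1) from 0.995 to 0.999 over 6 groups), and for Cdkn1a they were Kctd14, Gm37560, Btla, Spsb1 and Rnu2-10 (0.991 to 0.996). These genes were picked from many as the highest r over few means, and shared regulation was not tested.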

How the data were processed

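The 24 libraries were made from total RNA of the cultures with a stranded kit, per the labels' protocols. The deposited table holds TPM per gene, made on genome build mm10 with STAR and edgeR among the tools, per the submitters' processing notes. Versions, annotation, the strand setting of the counting and the tool behind TPM are not recorded in the labels, and TPM keeps no depth, so counting error is unknown. No other build is named for PWD, and the effect of strain sequence on TPM was not tested.

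From these values log2(TPM + 1) was fitted with limma 3.58.1 in R 4.3.3 (6 group means, all 24 libraries, 18 residual degrees of freedom, trend and robust options) for 13246 symbols with at least 1 TPM in at least 4 libraries. In each of 12 comparisons separately, Benjamini-Hochberg adjustment was made over all these symbols. A gene is called at adjusted p under 0.05, and fold changes on this scale understate those of low genes. The fit was tested on simulated data. The members and lists were chosen with earlier results of these data known. Named genes are, per class, up to 4 called members with the largest change among those with 5 TPM in a group and no overlap, called members against their class, and 12 fixed members. For a list of other genes they are up to 2 rises and 2 falls by the same rule. Mcm5, Chek1 and Gins2, the copies Pcna-ps2, Ccnb1-ps and Gm12856, and some values of members named by the rule for another comparison were chosen after their values were seen. Copies were found with blastn 2.17.0, and tables were joined in Python 3.11.15.

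The design text gives 4 cultures per strain, each from its own mouse, so the spread within a group is between mice. Untreated and treated libraries of a strain, 4 of each, would then come from the same mice. The main fit treats them as independent, so its p-values for LPS changes and differences of responses leave that pairing out. The design text does not state that treated and untreated libraries with the same number share a mouse. Their deviations from the group means correlated at 0.0513 to 0.176 over 12 pairs, and the fit has no block. Alternatives were another pseudocount, other filters, 2 other scalings, TPM without structural RNA, other limma options, a replicate block, libraries 1 and 2 or 3 and 4 alone, a minimum fold change and each library left out. Adding near-identical copies to Pcna and Ccnb1 was chosen after seeing the data.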

Additional observations from a re-analysis of the deposited data

Results flagged for a closer look

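In 10 of 132 groups of 4 libraries a single library stood apart from the other 3, and chance gives about 1 in 20. B6 untreated library 3 had low Ccnb1 (22.7 TPM against 30.1 to 31.4) and low Cdkn1b (9.63 TPM against 13.8 to 14.1), and its median of the 3 inhibitors was 3.41 against 3.89 to 3.92 on the log2(TPM + 1) scale. Structural RNA made up 44.2% of its TPM, the highest share of any library. C57 untreated library 2 had low Plk1 (19.9 TPM) and low Tyms (19.8 TPM). B6 untreated library 4 had high Ccnd1 (44.3 TPM against 29.6 to 32.1). Among treated libraries, Cdk1 was high in B6 library 2 (15.4 TPM), Rrm2 in B6 library 4 (5.76 TPM) and Mcm6 in PWD library 2 (13.0 TPM), whose G1/S and replication median was 3.53 against 3.42 to 3.43.

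The difference of LPS responses passed the limma test (adjusted p under 0.05) for the following of the members described in detail, with the size on the log2 scale. For PWD minus B6 they were Ccnd1 (-2.08), Ccnd2 (-1.37), Rrm2 (1.13), E2f8 (1.39), Mki67 (0.57), Ccnb1 (1.54), Cdk1 (0.95), Cdc20 (1.58), Plk1 (1.48) and Cdkn2c (1.13). For C57 minus B6 they were Ccnd2 (-1.04), Rrm2 (0.59), Tyms (-0.54), Ccnb1 (1.38), Cdk1 (1.07), Cdc20 (1.36) and Plk1 (1.32). For PWD minus C57 they were Ccnd1 (-2.57), Mcm2 (-0.53), Rrm2 (0.54), E2f8 (1.51) and Cdkn2c (0.80). By class, the G1/S and replication, G2/M and inhibitor genes that passed numbered 5, 20 and 1 for PWD minus B6, 4, 19 and 0 for C57 minus B6, and 4, 1 and 1 for PWD minus C57. The 2 contrasts with B6 share its libraries.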

How the results depend on the processing

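The number of called members (47, 47, 47, 42, 45, 15, 45, 45, 29, 26, 23 and 6 in the order LPS in B6, C57 and PWD, untreated PWD-B6, C57-B6 and PWD-C57, the same 3 after LPS, and differences of responses PWD-B6, C57-B6 and PWD-C57) stayed within 1.5 times of these under most alternatives. Requiring a log2 change of 1 left 31, 6 and 13 for LPS in B6, C57 and PWD, 7, 10 and 1 for the untreated pairs, 4 for PWD-C57 after LPS, and 10 and 2 for the differences C57-B6 and PWD-C57. No counts of all genes are given for that cut or for single libraries left out. The median LPS change of all genes was -0.43 in B6 and -0.32 in C57 and PWD. Libraries 1 and 2 alone gave 24 for untreated PWD-B6 and 14 for the difference C57-B6. All genes tested gave 2799 higher and 3627 lower, and 473 higher and 252 lower, for the same comparisons. The difference PWD-C57 had 3 calls with no filter, 14 with median-of-ratios scaling, 16 with quantile normalization, 13 without structural RNA and 11 with libraries 3 and 4 alone. Higher and lower calls over all genes were 717 and 793 in the main setting. In the order of settings just given they were 755 and 790, 1486 and 1375, 1535 and 1431, 1402 and 1328, and 270 and 1982. Leaving out 1 library in turn gave 3 (without C57 untreated library 3) to 9 (without PWD untreated library 1) for the difference PWD-C57. It gave 21 to 26 for C57-B6 and 26 to 27 for PWD-B6. The pairing is not stated, and treated libraries correlated best with the untreated one of their own number in 10 of 12 cases, a hint from the data, against 8 of 24 between strains. With the replicate block the counts were 48, 47, 46, 43, 45, 16, 45, 45, 27, 27, 25 and 6, and no count of all members moved by over 1.5 times.

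The single values that changed sign follow, of which those of E2f8 under both scalings and of Mki67 under median-of-ratios passed the test in the new direction. E2f8 in B6 went to 0.23 (median-of-ratios) and 0.31 (quantile), and Mki67 in PWD to 0.21 (median-of-ratios) and 0.0058 (libraries 1 and 2). Ccnb1 in untreated PWD-B6 went to -0.11 (median-of-ratios), -0.11 (quantile), -0.018 (without structural RNA) and -0.22 (libraries 1 and 2), and ranged from -0.068 to 0.10 with 1 library left out. Pcna in PWD-B6, called at -0.32 untreated and -0.42 after LPS, went to 0.19 and 0.13 with its copy added and was then not called. For the differences of responses with libraries 1 and 2, Mybl2 in PWD-B6 was 0.11, Cdkn1b in PWD-B6 0.096 and Mybl2 in C57-B6 -0.49. Mybl2 in C57-B6 was also -0.048 (median-of-ratios) and -0.073 (quantile), and -0.15 to 0.18 with 1 library left out. In each case the cause was not tested. Depth is unknown, so counting error cannot be given, and among the members Gins2, Chek1 and Mybl2 had the widest errors of the LPS change.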

Other observations

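Of the 3 pocket proteins that hold E2F targets silent, Rb1 fell in each strain, from a mean of 15.7 to 8.05 TPM in B6, from 23.3 to 12.6 TPM in C57 and from 30.2 to 16.8 TPM in PWD, and its responses were not called different (0.09 ± 0.16, SE, for PWD minus B6). Rbl1 and Rbl2 differed between strains. Rbl1 (p107) went from a mean of 9.11 to 16.6 TPM after LPS in B6, from 13.6 to 14.3 TPM in C57 and from 12.6 to 7.46 TPM in PWD. It rose in B6 (0.80 ± 0.084 on the log2 scale, SE) and fell in PWD (-0.68), and its difference of responses was -1.48 for PWD minus B6 and -0.74 for C57 minus B6. Rbl2 (p130) fell in B6 (11.7 to 7.30 TPM) and C57 (13.7 to 8.35 TPM) and rose in PWD (16.3 to 22.5 TPM, with overlapping libraries), with a difference of 1.06 for PWD minus B6. E2f5, an E2F that pairs with pocket proteins, fell in PWD from 7.10 to 3.07 TPM, with a difference of -1.23 for PWD minus B6. These genes were chosen after their values were seen, Rbl1 and E2f5 having the lowest PWD minus B6 values of their lists, and their values under other settings were not computed.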
